A study of Ovis aries with 16 samples.

Results

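KITLG encodes KIT ligand, also called stem cell factor, and KIT encodes the receptor tyrosine kinase that binds it. Their probes were taken by name from an ovine oligonucleotide array hybridized with hypothalamic RNA of 16 fetal sheep, 1 fetus per array. The 2 genes are among 962 gene names on the array. Of 15008 distinct probes, 6 carried one of these names, 4 as KITLG and 2 as KIT, and no probe of another name mentioned either gene in its description. The pair was chosen by its measured differences: earlier results of these arrays had shown KITLG high after occlusion and KIT low after estradiol, so those differences are given below as description, with no test. There were 4 groups of 4 chronically catheterized fetuses. The first group received estradiol at 250 ug per day for 5 days and then brachiocephalic occlusion (BCO), a closure of the artery to the head, for 10 min. The second received BCO alone, the third estradiol and a sham occlusion, and the fourth, the control, a sham occlusion and no treatment. All fetuses carried catheters, were sampled for blood on the same schedule, were 124 to 128 days into a gestation of 147 days, and had the hypothalamus collected 1 h after the occlusion or sham period began.

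KIT ligand is made as a membrane protein from which a soluble form can be cut, and its binding pairs KIT receptors and switches on their kinase. The signal runs through AKT, SRC-family kinases and STAT proteins and is best known for the survival of mast cells, melanocytes, germ cells and blood progenitors. In the brain the ligand has been described in neurons and the receptor in subsets of neurons and in migrating cells, while endothelial cells are a further source of ligand.

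The sequences are shown for the probes that can be read as KIT ligand and KIT, so that the stretch of each RNA that was measured is clear. A pair of the KITLG probes, A_70_P017022 and A_70_P017021, was designed on a partial coding sequence of sheep stem cell factor (U89874), at bases 639 to 698 and 679 to 738 of that record. They overlap by the 20 bases in capitals. The stretch codes for the membrane-spanning segment and the start of the cytoplasmic tail.
A_70_P017022: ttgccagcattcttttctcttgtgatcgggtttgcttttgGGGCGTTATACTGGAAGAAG
A_70_P017021: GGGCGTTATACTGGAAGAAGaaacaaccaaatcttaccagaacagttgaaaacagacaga

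The KIT probes came from a sheep KIT record (AM293661), at bases 185 to 244 and 205 to 264, and share the 40 bases in capitals. This stretch codes for part of the extracellular region of the receptor.
A_70_P008172: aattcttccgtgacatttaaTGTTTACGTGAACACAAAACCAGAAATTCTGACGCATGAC
A_70_P008171: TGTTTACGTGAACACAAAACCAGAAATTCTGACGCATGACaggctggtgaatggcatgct

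The other KITLG probes, A_70_P039386 and A_70_P039387, went against their label. Their record, NM_001009402, belongs to STAT5A in the RefSeq sheep gene table (assembly ARS-UI_Ramb_v3.0, used for names alone). KITLG and STAT5A are the 2 genes of that table with the synonym MGF. These probes, which share 59 of their 60 bases, are called the STAT5A-accession probes from here on and are not read as KIT ligand. STAT5A encodes a transcription factor that KIT and cytokine receptors activate. None of the 6 probes shared a run of 20 bases with a probe of another gene or with a member probe of another record. GC content was 45%, 40%, 36.7% and 45% in A_70_P017022, A_70_P017021, A_70_P008172 and A_70_P008171, beside a median of 43.3% over all probes. The files map no probe to the genome, so no position is given.

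The 2 slides held 2 arrays of each group, and 858 probes (6.63% of those tested) differed between slides. None of the 5 member probes tested did (limma, adjusted p = 0.268 to 0.87). Levels below are log2 signals from which the array's 75th percentile (2021 to 2904 units) was subtracted, so 0 is a bright probe and lower is dimmer. Between 77.26% and 86.42% of probes on an array were well above background by the scanner software. Probes were tested where that held on at least 4 arrays, which kept 12938 probes and 5 of the 6 members. Hypothalamic neuropeptide genes were set beside the tissue label: of 21 listed, 13 were measured. The 5 brightest, SST, TAC1, OXT, NPY and POMC, were well above background on 16 of 16 arrays, GNRH1 on 14 and GHRH on 11. Being picked as the brightest, the 5 were bound to be detected, so this does not test the label. LHB, a pituitary gene, was also on 16 arrays. The labels name 4 fetuses per group, and the p-values measure the spread between them.

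The KIT ligand signal was higher in every BCO fetus than in every control fetus. The brighter probe, A_70_P017022, was well above background on 16 of 16 arrays. Its levels in the estradiol+BCO group were -2.24, -4.47, -2.56 and -2.63. In BCO fetuses they were -2.78, -1.86, -3.07 and -1.33. Estradiol fetuses had -4.40, -4.63, -3.91 and -2.95, and control fetuses had -3.86, -3.96, -4.22 and -4.56. All BCO arrays lay above all control arrays, while estradiol+BCO replicate 2 lay down among the controls and estradiol replicate 4 lay up with the occluded fetuses.

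In arbitrary units the mean signal of A_70_P017022 was 349.5 ± 178.4 in estradiol+BCO, 544.2 ± 300.1 in BCO, 168.5 ± 104.7 in estradiol and 132 ± 23.5 in control fetuses (SD, n = 4 each). The 16 arrays spanned 9.86-fold. The widest gap between neighbouring arrays, from -3.86 to -3.07, left 8 arrays below it and 8 above. Those above were the 4 BCO arrays, estradiol+BCO replicates 1, 3 and 4 and estradiol replicate 4.

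**Figure D1:**
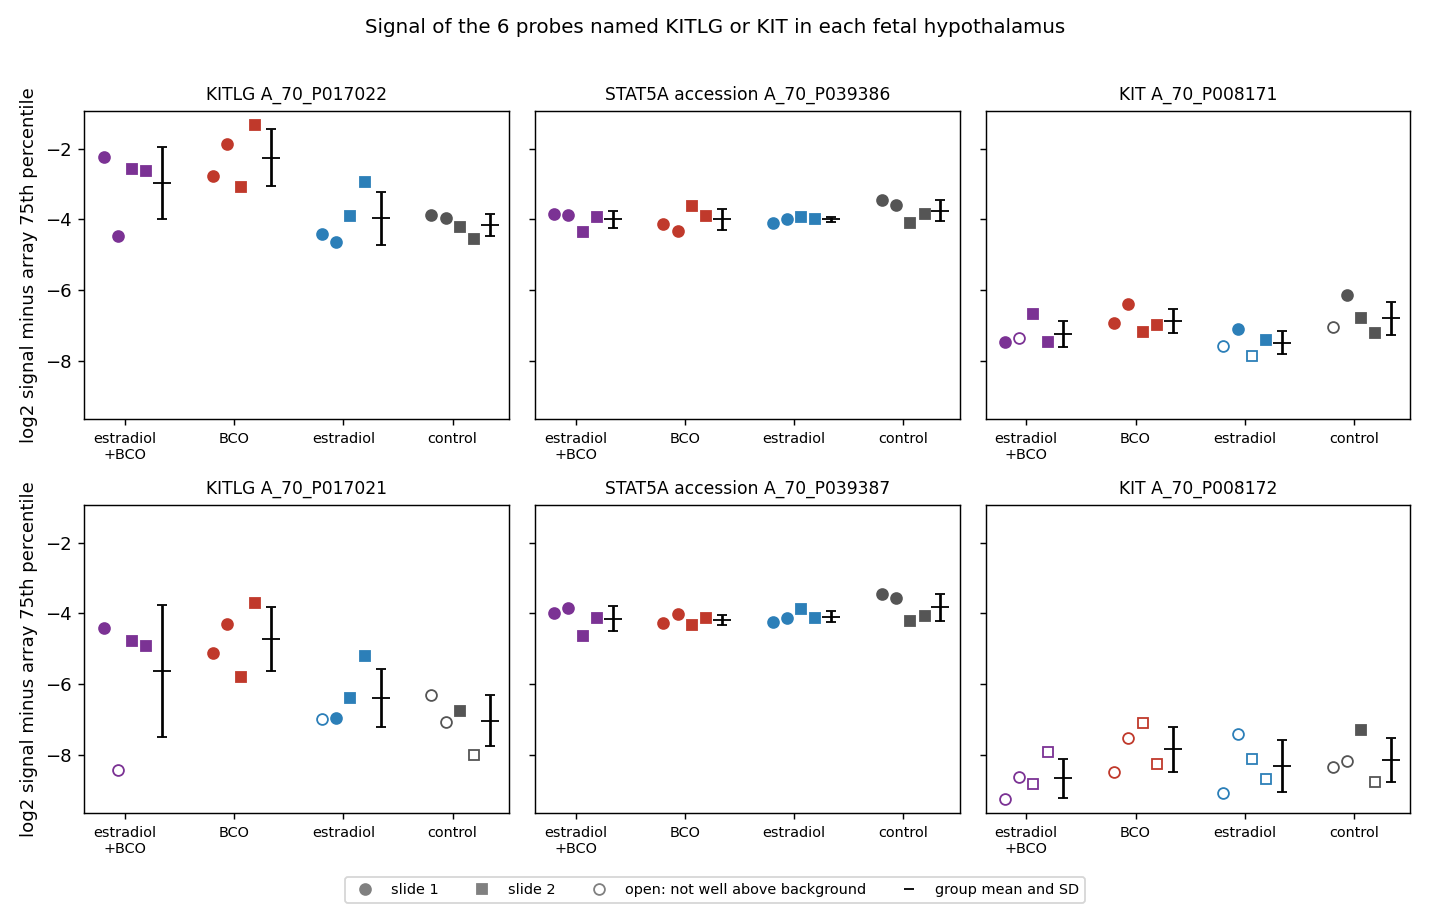
Log2 signal minus the array's 75th percentile for the 6 probes in every fetus, by group; points are arrays (circles slide 1, squares slide 2, open where not well above background) and bars the group mean and SD. Both KITLG probes of the stem cell factor record reach their highest levels in BCO fetuses, the STAT5A-accession probes stay between -4.63 and -3.45, and the KIT probes lie near the lower end of the scale.

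The second probe of the stem cell factor record, A_70_P017021, was dimmer and ordered the fetuses alike. Its levels were -4.43, -8.42, -4.78 and -4.91 in the estradiol+BCO group, and -5.12, -4.29, -5.79 and -3.70 in BCO fetuses. They were -6.98, -6.96, -6.40 and -5.22 in estradiol and -6.30, -7.07, -6.76 and -8.00 in control fetuses. Estradiol+BCO replicate 2 was again the exception, here the lowest of all 16 arrays. It was not well above background, so how low it lay is uncertain. The probe was well above background on 3 estradiol+BCO, 4 BCO, 3 estradiol and 1 control arrays, so its control level was measured on 1 array.

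Across the 16 arrays A_70_P017021 and A_70_P017022 had a Pearson r of 0.955 and a Spearman rho of 0.956 (each permutation p = 1e-05, the smallest that 100000 permutations can give; adjusted p = 0.0001 over 10 relations among the 5 tested probes). Without the 2 arrays farthest from the median, r was 0.941. It was 0.935 on slide 1, 0.974 on slide 2 and 0.953 after centring on group means. Within the 8 arrays above the gap r was 0.965, and within the 8 below it 0.669. The probes overlap in sequence and share each fetus's RNA, so they are not independent measurements. The 16 arrays include the BCO and control arrays that picked KITLG, and the permutations ignored group. These p-values are therefore not free of that choice.

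For BCO minus control, A_70_P017022 had a log2 difference of 1.89 ± 0.50 (SE, n = 4 and 4), a ratio of 3.71. The difference was 1.59 on slide 1 and 2.19 on slide 2. A_70_P017021 had a fitted difference of 2.31 ± 0.77, with 1.98 on slide 1 and 2.63 on slide 2. Since 3 of its 4 control arrays were not well above background, that size is uncertain. With another background correction (normexp) the size was 1.49 for A_70_P017022 and 0.85 for A_70_P017021. In the whole set, 291 of 12886 probes with all values present (2.26%) had every BCO array above every control array. No probe passed an adjusted p of 0.05 in this comparison (0% of 12938, limma), while 928 (7.17%) had an unadjusted p under 0.05. More cells of a type and more RNA per cell cannot be told apart in RNA from a piece of tissue.

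The 8 estradiol-treated fetuses give the same occlusion contrast in animals that the choice of KITLG did not use. For estradiol+BCO minus estradiol, A_70_P017022 had a log2 difference of 1.00 ± 0.50 (95% interval -0.08 to 2.07), with an unadjusted p of 0.066 and an adjusted p of 0.664 (limma). The difference was 1.16 on slide 1 and 0.83 on slide 2. The groups overlapped, and 13 of 16 pairs of arrays had the occluded fetus higher. The occlusion difference of KIT ligand in estradiol-treated fetuses therefore did not pass the test. Over all probes, 1 passed in this comparison (0.00773% of 12938), and 1000 (7.73%) had an unadjusted p under 0.05.

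Estradiol+BCO replicate 2 set much of that spread. Without it the difference of A_70_P017022 was 1.49 (adjusted p = 0.28). Without estradiol replicate 4 it was 1.34 (adjusted p = 0.479). Over 28 alternative settings it ran from 0.62 to 1.49, with adjusted p from 0.28 to 0.989. For A_70_P017021 the difference was 0.76 ± 0.77 (adjusted p = 0.863), and 1.68 without estradiol+BCO replicate 2 (adjusted p = 0.316). That array was not well above background for this probe.

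Estradiol made no detectable difference to KIT ligand. For estradiol minus control A_70_P017022 had 0.18 ± 0.50 (95% interval -0.89 to 1.25; adjusted p = 1, limma), a comparison in which 0% of 12938 probes passed and 424 (3.28%) had an unadjusted p under 0.05. Its sign differed between slides, at -0.60 on slide 1 and 0.96 on slide 2, and it was -0.16 without estradiol replicate 4. A_70_P017021 had 0.64 ± 0.77 (adjusted p = 1), with -0.28 on slide 1 and 1.57 on slide 2. This comparison shares the control arrays with the one that picked KITLG. The 95% interval of A_70_P017021, from -0.998 to 2.29, was wide, so the arrays set only a loose limit on an estradiol effect.

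Among occluded fetuses, estradiol+BCO minus BCO was -0.72 ± 0.50 for A_70_P017022 (95% interval -1.79 to 0.35; adjusted p = 0.682, limma), where again 0% of 12938 probes passed and 1221 (9.44%) had an unadjusted p under 0.05. It was -1.03 on slide 1 and -0.40 on slide 2, and -0.22 without estradiol+BCO replicate 2. A_70_P017021 had -0.91 ± 0.77 (adjusted p = 0.747), and 0.019 without that array. This comparison shares the BCO arrays with the one that picked KITLG.

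By group mean, A_70_P017022 ran from BCO (-2.26 ± 0.81) through estradiol+BCO (-2.98 ± 1.01) and estradiol (-3.97 ± 0.75) to control (-4.15 ± 0.31; SD, n = 4 each). No neighbouring groups in that order passed the test. The interaction, the occlusion difference with estradiol minus that without it, was -0.90 ± 0.71 for A_70_P017022 and -1.55 ± 1.08 for A_70_P017021 (SE). Both interactions hold the comparison that picked the gene and carry no test.

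**Figure D2:**
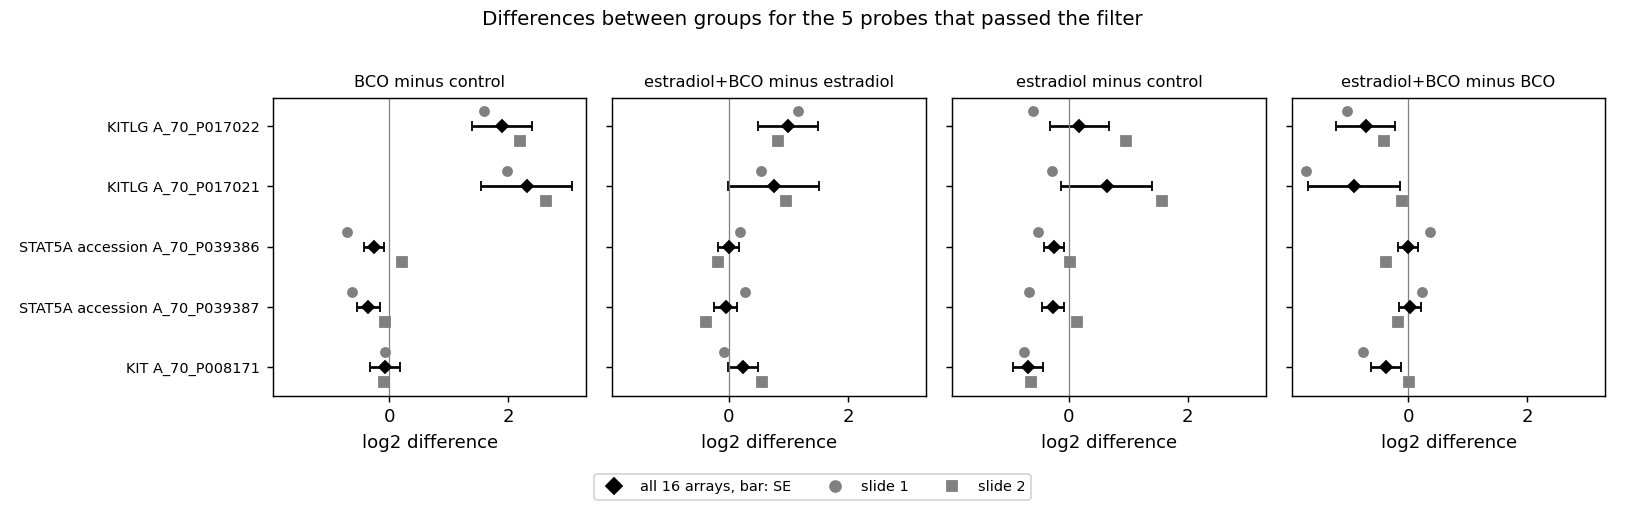
Log2 differences (horizontal axis) of the 5 tested probes in 4 comparisons; diamonds are the estimates from all 16 arrays with SE, circles and squares the differences within slides 1 and 2. The KITLG probes of the stem cell factor record lie at 1.89 and 2.31 for BCO minus control, while the STAT5A-accession probes lie between -0.35 and 0.03 in every comparison.

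The STAT5A-accession probes behaved otherwise. A_70_P039386 had levels of -3.85, -3.87, -4.36 and -3.92 in the estradiol+BCO group, and -4.13, -4.33, -3.63 and -3.90 in BCO fetuses. They were -4.10, -3.97, -3.92 and -3.98 in estradiol and -3.45, -3.58, -4.11 and -3.85 in control fetuses. All groups overlapped, and the 16 arrays, each well above background, spanned 1.87-fold. A_70_P039387 spanned 2.26-fold, from -4.63 in estradiol+BCO replicate 3 to -3.46 in control replicate 1.

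BCO minus control was -0.25 ± 0.17 for A_70_P039386 and -0.35 ± 0.19 for A_70_P039387. The first of these was -0.71 on slide 1 and 0.21 on slide 2. For estradiol+BCO minus estradiol the probes had -0.005 ± 0.17 and -0.05 ± 0.19 (adjusted p = 0.998 and 0.987, limma). For estradiol minus control they had -0.25 ± 0.17 and -0.26 ± 0.19 (both adjusted p = 1), and for estradiol+BCO minus BCO -0.0014 ± 0.17 and 0.03 ± 0.19 (adjusted p = 0.998 and 0.975).

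A_70_P039386 and A_70_P039387 had r = 0.703 with each other (permutation p = 0.00271, adjusted p = 0.0136; rho = 0.585, adjusted p = 0.102), and r = 0.402 without the 2 farthest arrays. A_70_P017022 and A_70_P039386, which the files give the same name, had r = -0.276 (permutation p = 0.299, adjusted p = 0.518; rho = -0.229). By comparison, 516 probe pairs of one record had a median r of 0.774, and 48 pairs of one gene name on different records had a median of 0.46. In estradiol+BCO minus estradiol, which the choice of KITLG did not use, A_70_P017022 and A_70_P039386 lay 1.00 apart, beside a median gap of 0.16 over those 48 pairs, 97.92% of which were closer. In estradiol minus control, which shares the control arrays with the comparison that picked KITLG, they lay 0.43 apart. The median there was 0.15, with 89.58% of pairs closer. In both comparisons A_70_P017022 alone had an SE of 0.50, and 97.15% of tested probes had a smaller SD than it. Probes named KITLG were not averaged across the records.

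**Figure D3:**
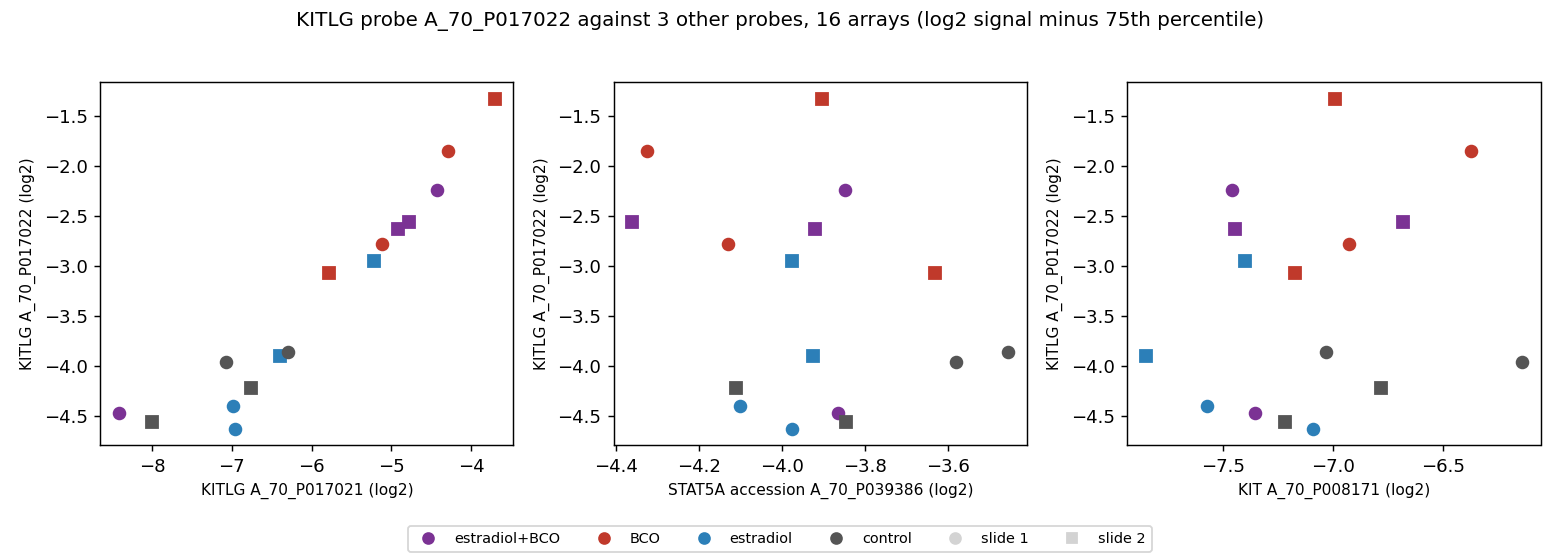
A_70_P017022 (vertical axis) against the second KITLG probe, a STAT5A-accession probe and a KIT probe in the 16 fetuses, all as log2 signal after subtracting the 75th percentile; colours are groups and shapes slides. The first panel is close to a line (r = 0.955), the other panels are not (r = -0.276 and 0.195).

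KIT RNA was close to the limit of detection. A_70_P008171 was well above background on 3 estradiol+BCO, 4 BCO, 2 estradiol and 3 control arrays, with spots of 90.1 to 113.9 units over a local background of 53.5 to 72 units. Its levels were -7.46, -7.35, -6.68 and -7.45 in estradiol+BCO fetuses and -6.93, -6.37, -7.17 and -6.99 in BCO fetuses. They were -7.57, -7.09, -7.85 and -7.40 in estradiol and -7.03, -6.14, -6.78 and -7.22 in control fetuses. The groups overlapped in every comparison. A_70_P008172 was well above background on 1 of 16 arrays, control replicate 3, and was not tested. Its 16 levels lay between -9.25 and -7.11.

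For estradiol minus control, the comparison that picked KIT, A_70_P008171 had -0.69 ± 0.25 (SE, n = 4 and 4), a ratio of 0.622. It was -0.75 on slide 1 and -0.63 on slide 2, and 1 of 16 pairs of arrays had the estradiol fetus higher. With the normexp correction the difference was 0.06 ± 0.20, so its size and sign depended on how background was handled. Estradiol replicate 3, the lowest of the 16 arrays without normexp at -7.85, was at -3.89 with it. The other estradiol arrays were then at -4.87, -4.67 and -5.04, and the control arrays ran from -4.91 to -4.33. The change of sign rested on estradiol replicate 3. A_70_P008172 had -8.31 ± 0.73 in estradiol and -8.15 ± 0.62 in control fetuses. No estradiol array had it well above background.

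In the occluded fetuses, which the choice of KIT did not use, estradiol+BCO minus BCO was -0.37 ± 0.25 for A_70_P008171 (95% interval -0.92 to 0.18; adjusted p = 0.678, limma). It was -0.76 on slide 1 and 0.02 on slide 2. The estradiol difference of KIT among occluded fetuses did not pass the test. BCO minus control was -0.07 ± 0.25 (adjusted p = 0.999; 0.14 without control replicate 2 and 0.029 without BCO replicate 3), and estradiol+BCO minus estradiol was 0.24 ± 0.25 (adjusted p = 0.871; -0.17 with normexp). The first of these shares the control arrays, and the second the estradiol arrays, with the comparison that picked KIT.

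By group mean A_70_P008171 ran from control (-6.79 ± 0.47) through BCO (-6.87 ± 0.34) and estradiol+BCO (-7.24 ± 0.37) to estradiol (-7.48 ± 0.32; SD, n = 4 each), and no neighbouring groups passed the test. No relation between ligand and receptor was detected across fetuses. A_70_P017022 and A_70_P008171 had r = 0.195 (permutation p = 0.469, adjusted p = 0.67) and rho = 0.20 (permutation p = 0.458, adjusted p = 0.596), with r = 0.28 on slide 1, 0.21 on slide 2 and -0.023 without the 2 farthest arrays. With KIT so near background, a relation could have gone undetected.

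Other parts of the pathway were sparsely covered and did not pass the test in any comparison. Few probes of any kind passed, 0 to 1 of 12938 per comparison. Of 52 genes listed for KIT signalling, 2 were measured and neither passed. AKT1, a kinase downstream of KIT, had 0.11 ± 0.10 for BCO minus control (adjusted p = 0.926) and -0.20 ± 0.10 for estradiol minus control (adjusted p = 1). Over all probes the median difference was 0.0079 for BCO minus control and -0.0055 for estradiol minus control.

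Of 11 related receptors and ligands of the PDGF, CSF1 and FLT3 families, 2 ligands were measured. FLT3LG, the ligand of FLT3, had 0.06 ± 0.16, and PDGFB, a platelet-derived growth factor chain, 0.22 ± 0.28 for BCO minus control (adjusted p = 0.999 and 0.962). For estradiol+BCO minus estradiol FLT3LG had 0.39 ± 0.16 (adjusted p = 0.601).

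Of 13 proteases and inhibitors listed for the release of soluble ligand, 5 were tested, 4 above 0 and 1 below for BCO minus control (median 0.06). MMP2, a matrix metalloproteinase, had 0.29 ± 0.15 (adjusted p = 0.726) and TIMP1, a metalloproteinase inhibitor, -0.17 ± 0.16 (adjusted p = 0.911). Of 17 listed transcription regulators of either gene, 6 were tested, 5 above 0 and 1 below (median 0.29). EPAS1, the hypoxia-inducible factor 2 alpha subunit, had 0.46 ± 0.18 (adjusted p = 0.58), and ARNT, the partner subunit of the hypoxia-inducible factors, 0.75 ± 0.37 (adjusted p = 0.715). All 57 tested genes of the 14 lists missed the threshold in the 4 comparisons. Over all 12938 probes, 1 passed for estradiol+BCO minus estradiol and 0 in each other comparison. With so few passing anywhere, these misses, here and in the lists below, say little about the listed genes.

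Markers of cells that use or make the ligand were also measured, and their part in the KITLG difference was not tested. Of 15 mast cell genes, 3 were tested, 2 above 0 and 1 below for BCO minus control. FCER1G, the gamma chain of Fc receptors and the brightest of them, had -0.24 ± 0.17 (adjusted p = 0.845). TPSB2, a mast cell tryptase, had 0.64 ± 0.36 (adjusted p = 0.779), while MS4A2, the beta chain of the IgE receptor, was well above background on 0 of 16 arrays. The mean of the 3 genes ran from -4.07 to -2.17 in estradiol+BCO, -5.11 to -2.56 in BCO, -4.49 to -3.47 in estradiol and -3.95 to -3.80 in control fetuses. The groups overlapped. In estradiol+BCO minus estradiol, all 3 lay above 0 (median 0.50). TYR, tyrosinase of melanocytes, had -0.75 ± 0.34 for BCO minus control (adjusted p = 0.682) and -0.20 ± 0.34 for estradiol+BCO minus estradiol.

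All 5 tested endothelial genes of 18 listed lay above 0 for BCO minus control (median 0.20), and none passed. SELP, the adhesion receptor P-selectin, had 1.57 ± 0.47 (adjusted p = 0.49), and KDR, a VEGF receptor, 0.014 ± 0.14 (adjusted p = 1, to 3 digits). In estradiol+BCO minus estradiol, 3 of the 5 lay above 0 and 2 below (median 0.06). The mean of the 5 genes ran from -3.65 to -3.35 in estradiol+BCO, -3.50 to -2.97 in BCO, -3.83 to -3.42 in estradiol and -4.08 to -3.62 in control fetuses.

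The neuron list was read through GRIN1, a glutamate receptor subunit and the 1 measured gene of 12. It had 0.55 ± 0.20 for BCO minus control (adjusted p = 0.561) and -0.34 ± 0.20 for estradiol+BCO minus estradiol (adjusted p = 0.735, limma). GRIN1 ran from -1.63 to -0.88 in estradiol+BCO, -0.83 to -0.26 in BCO, -1.04 to -0.62 in estradiol and -1.42 to -0.53 in control fetuses. Microglia and leukocyte genes lay below 0 for BCO minus control in 4 of 4 tested (median -0.33), with ITGB2, a leukocyte integrin chain, at -0.36 ± 0.17 (adjusted p = 0.706). In estradiol+BCO minus estradiol, 2 lay above 0 and 2 below (median -0.06). The mean of the 4 genes ran from -2.79 to -2.59 in estradiol+BCO, -3.41 to -2.67 in BCO, -2.76 to -2.45 in estradiol and -2.93 to -2.38 in control fetuses. Fibroblast genes had 1 above 0 and 3 below for BCO minus control (median -0.014), and astrocyte genes 2 above and 2 below (median 0.012). In estradiol+BCO minus estradiol, all 4 of each list lay below 0 (medians -0.47 and -0.12). None of these genes passed the test.

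Hypothalamic neuropeptide genes lay on the other side of 0 for BCO minus control, and none passed the test. Of 21 listed, 13 were tested, and 12 lay below 0 for BCO minus control (median -1.70; -1.35 on slide 1 and -2.15 on slide 2). In estradiol+BCO minus estradiol, which the choice of KITLG did not use, 5 lay above 0 and 8 below (median -0.10). Their mean level was -0.85, -0.50, -2.28 and -1.50 in estradiol+BCO fetuses and -2.29, -2.77, -2.44 and -3.48 in BCO fetuses. It was -0.50, 0.27, -1.34 and -2.08 in estradiol and -0.92, -0.61, -0.31 and -0.48 in control fetuses. Estradiol+BCO replicate 2, low in KITLG, was the highest of its group, and estradiol replicate 4, high in KITLG, the lowest of its group. GAL, the peptide galanin, had -2.82 ± 0.56 for BCO minus control (adjusted p = 0.466) and GRP, gastrin-releasing peptide, -1.18 ± 0.31 (adjusted p = 0.468).

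Pituitary genes lay below 0 in 7 of 7 tested for BCO minus control, some of them near 0 or dim. GHRHR had -0.03 ± 0.38, CGA had an SE of 2.15, and FSHB and GH were well above background on 9 and 4 arrays. LHB, a luteinizing hormone subunit, was the brightest of them, with a mean level of 2.17 and 16 arrays well above background. LHB had -0.11 ± 0.19 and PRL, prolactin, also on 16 arrays, -2.26 ± 1.04 (adjusted p = 0.988 and 0.695, limma). POU1F1, a pituitary transcription factor, was well above background on 0 arrays. In estradiol+BCO minus estradiol, 3 of the 7 lay above 0 and 4 below. The mean of the 7 genes ran from -5.87 to -5.11 in estradiol+BCO, -6.43 to -4.85 in BCO, -5.01 to -3.68 in estradiol and -5.70 to -2.04 in control fetuses. Control replicate 4 was at -2.04, and the other control arrays lay from -5.70 to -4.20. The part of these lists in the KITLG difference was not tested.

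Of 849 named genes, the one whose levels were most like those of A_70_P017022 was CD247, the zeta chain of the T-cell receptor, with r = 0.925 over the 16 arrays and 0.912 after centring on group means. CD247 was at 0.75, -1.33, 0.16 and 0.39 in the estradiol+BCO group and at -0.35, -0.21, -0.33 and 0.91 in BCO fetuses. It was at -1.39, -1.50, -1.44 and -0.40 in estradiol and at -0.93, -1.14, -1.18 and -1.13 in control fetuses. The exceptions were the same as for KITLG, estradiol+BCO replicate 2 at the bottom of its group and estradiol replicate 4 at the top of its own. A second CD247 probe had r = 0.914. By group mean, CD247 was higher with occlusion, with or without estradiol. CD3E, another T-cell receptor complex gene, from the microglia and leukocyte list, lay below 0 in the same comparisons. It had -0.41 ± 0.39 for BCO minus control (adjusted p = 0.924, limma). For estradiol+BCO minus estradiol it had -0.39 ± 0.39 (adjusted p = 0.862). Whether the CD247 signal came from T cells was not tested. All genes were read on the same arrays, and r for CD247 was 0.682 within the 8 arrays above the KITLG gap and 0.458 within the 8 below.

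Next came LGALS1, the lectin galectin-1 (r = 0.80), RHOF, a small GTPase (0.78), NPPC, the precursor of C-type natriuretic peptide (0.78), and AURKA, a mitotic kinase (0.77). After centring on group means these were 0.70, 0.75, 0.71 and 0.63. Within the 8 lower arrays LGALS1, NPPC and AURKA had r of -0.19, -0.15 and -0.12, so their likeness to KITLG rested on the upper arrays and on the step between the sides. RHOF kept 0.588 below and 0.803 above.

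The levels most opposed to A_70_P017022 were those of CRHBP, the binding protein of corticotropin-releasing hormone (r = -0.90), POMC, the precursor of ACTH and melanocortins (-0.87) and ESR1, estrogen receptor alpha (-0.87). After centring on group means r was -0.82, -0.73 and -0.73. Like those of the genes above, the r values over 16 arrays include the BCO and control arrays that picked KITLG. CRHBP averaged -0.09 ± 0.56 in estradiol+BCO, -0.76 ± 0.51 in BCO, 0.23 ± 0.13 in estradiol and 0.25 ± 0.30 in control fetuses (SD, n = 4 each). Its r was -0.828 within the 8 arrays above the gap and -0.532 within the 8 below. ESR1 averaged -0.79 ± 0.60 in estradiol+BCO, -1.72 ± 0.81 in BCO, -0.35 ± 0.62 in estradiol and -0.18 ± 0.38 in control fetuses. For ESR1, r was -0.628 above and -0.197 below the gap. POMC went the other way, with -0.277 above and -0.936 below.

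**Figure D4:**
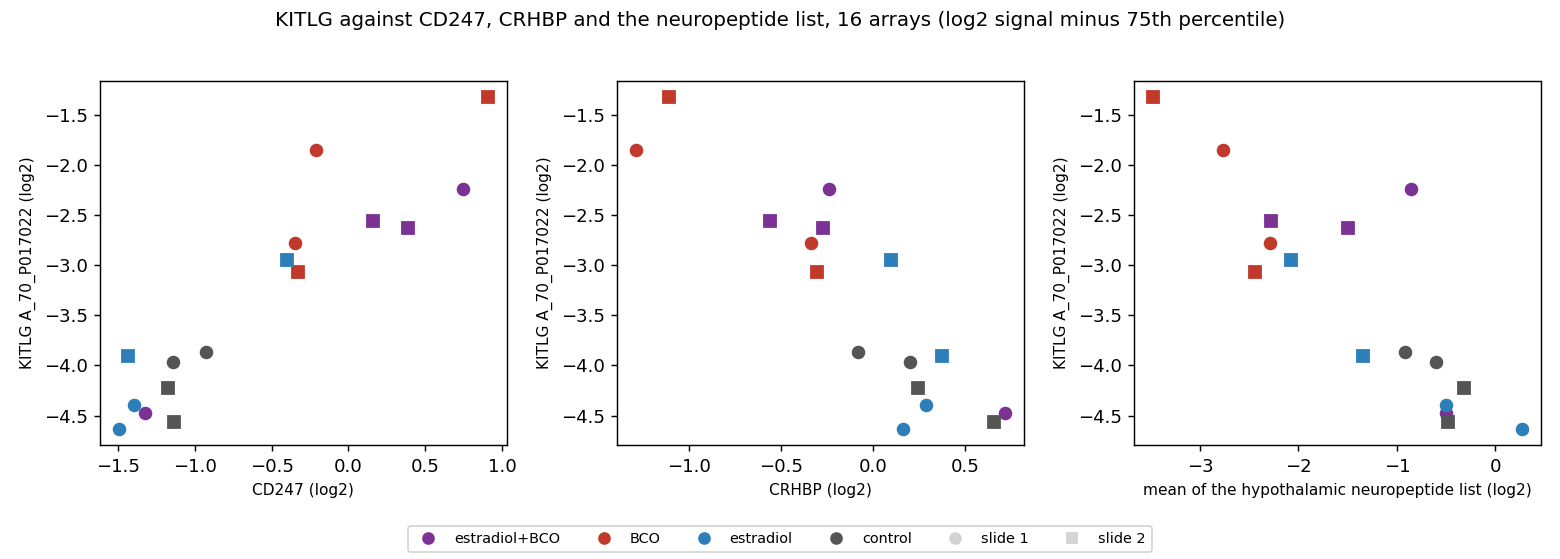
A_70_P017022 (vertical axis) against CD247, CRHBP and the mean of 13 hypothalamic neuropeptide genes in the 16 fetuses, all as log2 signal after subtracting the 75th percentile; colours are groups and shapes slides. KITLG was high where CD247 was high and low where CRHBP was high, with estradiol+BCO replicate 2 at the control end and estradiol replicate 4 at the occluded end of the first panel.

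For KIT the closest patterns were weaker. SLIRP, an RNA-binding protein of mitochondria, had r = 0.68 to A_70_P008171, NOS2, the inducible nitric oxide synthase, 0.65, TTR, the thyroid hormone carrier transthyretin, 0.65, SSTR2, a somatostatin receptor, 0.64, and CENP-B, a centromere protein, 0.61. Among the lowest were PTGS2, the inducible prostaglandin synthase, at -0.68, and OMYHC2X at -0.61. OMYHC2X was well above background on 8 of 16 arrays and A_70_P008171 on 12, so that r draws partly on signals near background. All r values to KIT include the estradiol and control arrays that picked it. For TTR the group means were -0.25 ± 1.64 in estradiol+BCO, 0.69 ± 2.32 in BCO, 0.18 ± 1.36 in estradiol and 1.90 ± 1.37 in control fetuses (SD, n = 4 each).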

How the data were processed

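Hypothalamic RNA (500 ng per array, integrity numbers 7.4 to 8.4 per the labels) was labelled with Cy3 and hybridized to a single-color Agilent array (design 019921). Per the file headers, Feature Extraction 10.1.1.1 (protocol GE1-v5_10_Apr08) read the arrays. The deposited scanner files give the processed intensity of each spot, background-subtracted by the authors, in arbitrary units. The deposited value table of log2 values equals the log2 processed signal minus a constant per array and was used as an alternative.

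From 15744 features per array, 15208 not controls and 15008 distinct probes, flagged spots were left out and spots of a probe averaged. Log2 signals were scaled to each array's 75th percentile. limma 3.58.1 in R 4.3.3 fitted 4 group means to 16 arrays, with 2-sided tests and Benjamini-Hochberg adjustment over 12938 probes (2070 dim ones left out); adjusted p under 0.05 was the threshold. On simulated data for BCO minus control over 12938 probes, 93% of log2 changes of 2 and 100% of 4 were recovered. Those shares are averages over probes, and smaller changes were not simulated. Since 97.15% of tested probes had a smaller SD than A_70_P017022, they do not give the power for KITLG. The number of arrays limits precision.

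Members, lists and tests were chosen with earlier results of these data known. All probes of KITLG and KIT are named. For likeness, 5 genes with the highest and 3 with the lowest r to the brightest tested probe of each member are named, and up to 4 genes per list by lowest unadjusted p. Some genes stand outside this rule, named beside the tissue label or as not detected or dim. So do the brightest pituitary gene (LHB), the least changed pituitary gene (GHRHR) and the least changed endothelial gene (KDR). All of these were chosen after their values were seen. Some genes that the rule chose are not reported here. Sequences come from the deposited probe annotation. Names came from the RefSeq sheep gene table: accessions named 698 probes, symbols 497, gene identifiers 125 and synonyms 20, the file's own name was retained for 214, and 8 conflicted, among them the 2 STAT5A-accession probes. Correlations used Python 3.11.15 with 100000 permutations.

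Deviations of same-numbered arrays of different groups had r from -0.027 to 0.278 (median 0.123, 24 pairs), not over 0.1 in every pair, so replicate numbers were not taken as pairs. Alternatives were quantile normalization, median centring, normexp with offset 50, other filters, slide as a block, each slide alone, replicate number as a block, the deposited log2 table, the compared groups alone and leaving out each array.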

Additional observations from a re-analysis of the deposited data

Results flagged for a closer look

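In 24 sets of 4 arrays (6 probes in 4 groups), the gap of the highest or lowest array to its neighbour was compared with the group's range by Dixon's criterion, which flags about 1 in 20 groups by chance. All 3 instances found were in the estradiol+BCO group. KITLG probe A_70_P017021 was at -8.42 in replicate 2, where it was not well above background, against -4.91 to -4.43 in the other arrays of the group. KIT probe A_70_P008171 was at -6.68 in replicate 3, against -7.46 to -7.35. STAT5A-accession probe A_70_P039386 was at -4.36 in replicate 3, against -3.92 to -3.85.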

How the results depend on the processing

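The BCO minus control difference of A_70_P017022 stayed above 0 in all 28 settings, from 1.49 to 2.19, and that of A_70_P017021 in all 27, from 0.85 to 2.66. With normexp, KIT A_70_P008171 had 0.059 for estradiol minus control, 0.0047 for BCO minus control, -0.17 for estradiol+BCO minus estradiol and an interaction of -0.17. Estradiol replicate 3, at -3.89 with normexp, entered each of these except BCO minus control. With quantile normalization KIT had 0.038 for BCO minus control. For A_70_P039386, estradiol+BCO minus estradiol and estradiol+BCO minus BCO were 0.020 and 0.024 with quantile normalization, 0.014 and 0.029 with median centring, and 0.0099 and 0.031 in the deposited log2 table. On slide 1 alone they were 0.18 and 0.37, A_70_P039387 had 0.27 and KIT -0.077 for estradiol+BCO minus estradiol, and estradiol minus control was -0.28 for A_70_P017021 and -0.60 for A_70_P017022. On slide 2 alone, estradiol minus control was 0.029 for A_70_P039386 and 0.14 for A_70_P039387, and estradiol+BCO minus BCO was 0.019 for KIT and -0.16 for A_70_P039387. The cause of these shifts was not tested.

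Counts of probes past the threshold for BCO minus control were 14 on slide 2 alone and 3 with the compared groups alone. For estradiol+BCO minus estradiol they were 0 with median centring, on either slide alone, with the replicate number as a block, in the deposited table and with the compared groups alone. For estradiol minus control 1 passed and for estradiol+BCO minus BCO 13 passed on slide 2 alone. Each slide alone holds 8 arrays. The replicate block changed no other call, and 3 of 16 arrays correlated best with an array of their own number.

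Leaving out each array in turn gave 0 to 6 probes for BCO minus control (6 without BCO replicate 2), 0 to 1 for estradiol+BCO minus estradiol and 0 to 5 for estradiol+BCO minus BCO (5 without BCO replicate 1). The KIT difference for BCO minus control ran from -0.24 to 0.14, A_70_P017022 for estradiol minus control from -0.16 to 0.40, and A_70_P017021 for estradiol+BCO minus BCO from -1.31 to 0.019. For estradiol+BCO minus estradiol, A_70_P039386 ran from -0.055 to 0.12 and A_70_P039387 from -0.15 to 0.11. For estradiol+BCO minus BCO they ran from -0.11 to 0.12 and from -0.068 to 0.19. KIT, on 12 of 16 arrays above background, is limited by signal.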
